A study of Homo sapiens with 12 samples.

Results

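PGD, TKT, TALDO1, ME1 and IDH1, which encode cytosolic enzymes of NADPH supply and the pentose phosphate pathway, and NQO1, TXNRD1, SRXN1 and HMOX1, which are target genes of the transcription factor NRF2, were followed across the 4 groups of the study. These 9 genes were listed by symbol, since MTHFD2, the enzyme removed in the knock-out, makes reduced cofactor. All 9 were found among the 60648 genes of the deposited count table, and 8 of the 9 had enough counts to be tested. SRXN1 did not pass the filter on low counts.

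NADPH carries the electrons that cells use to build lipids and to keep thioredoxin and glutathione reduced. In the cytosol it is made by the oxidative branch of the pentose phosphate pathway, by malic enzyme and by isocitrate dehydrogenase, while MTHFD2 oxidises a folate-bound one-carbon unit in mitochondria and passes the electrons to NAD or NADP. NRF2, encoded by NFE2L2, is held down by KEAP1, which marks it for degradation. When oxidants or electrophiles modify KEAP1, NRF2 accumulates, pairs with a small MAF protein and binds antioxidant response elements in the promoters of detoxifying genes.

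HCT116 is an established human colon carcinoma line. The cells were MTHFD2-WT or MTHFD2-KO, and the knock-out came from 1 clone made with CRISPR-Cas9, so that the loss of MTHFD2 and other properties of that clone cannot be told apart. RNA was taken soon after the knock-out was made (initial) or after 2 months in culture (final), with 3 libraries in each of the 4 groups, and all groups grew in DMEM with fetal bovine serum and antibiotics. Whether the MTHFD2-WT cells were also cloned is not given in the sources used here.

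Poly-A selected RNA was sequenced, with totals between 38597809 and 40017561 counts per library and within-group correlations of log2 CPM between 0.989 and 0.996. MTHFD2 had 319 to 457 CPM in the 6 wild-type libraries and 123 to 155 CPM in the 6 knock-out libraries, so its RNA was reduced and not absent (33.2% of the wild-type level initially and 38.5% finally). CPM is the count per 1000000 counts of the library, scaled by the trimmed mean of M-values (TMM). Of 9 colon epithelial markers, EPCAM, KRT8, KRT18, KRT19 and CDH1 lay at 107 CPM or more in every library and CDX2 at 10.7 to 16.5 CPM, while CDH17 was at 0.476 CPM or less and CDX1 and VIL1 were under the filter. CDH1, EPCAM, KRT18 and KRT19 fell in the knock-out on the average over both harvests. Of 10 markers of other cell types, CD3E and DCN had 0 counts in every library and PTPRC at most 2. The 10 markers summed to between 57.4 and 80.2 CPM in the wild-type libraries and between 39.6 and 61.1 CPM in the knock-out libraries, of which all but COL1A1 made up 2.52 to 2.93 and 3.39 to 5.04 CPM. PDGFRB and ALB rose and COL1A1 fell in the knock-out, and their part in the results was not tested.

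Among the 8 tested genes, 1 library of each group was low almost throughout. All 8 were lowest in replicate 1 and highest in replicate 2 of the initial wild type, all 8 were lowest in replicate 1 of the initial knock-out, and all 8 were lowest in replicate 2 of the final knock-out. In the final wild type, 7 of the 8 were lowest in replicate 1 and 7 of the 8 highest in replicate 3. Of all tested genes, 38.4%, 38.1%, 35.6% and 41.1% were lowest in these 4 libraries. The ratio of the highest to the lowest library within a group reached 1.48 for TALDO1 in the initial wild type. The libraries of a group thus ranked alike for most of these genes, and values without each library are given where they alter a call.

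Per base of exon, the 8 genes spanned from abundant to moderate levels. Their mean over the 12 libraries in transcripts per 1000000 (TPM), with exon lengths from the deposited table, was 402 for NQO1, 286 for PGD, 286 for TKT, 223 for TXNRD1, 174 for TALDO1, 108 for ME1, 94.7 for IDH1 and 32.5 for HMOX1. TPM was not scaled by TMM. Between libraries, TPM and CPM of a given gene differ only in the total by which its count is divided. For a given gene, TPM is thus not a measurement independent of CPM. The library ranges of TALDO1 (142 to 227 TPM) and ME1 (92.6 to 134 TPM) did not overlap, nor did those of IDH1 (78.9 to 115 TPM) and HMOX1 (25.3 to 47.0 TPM). All other neighbours in this order had overlapping ranges.

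**Figure D1:**
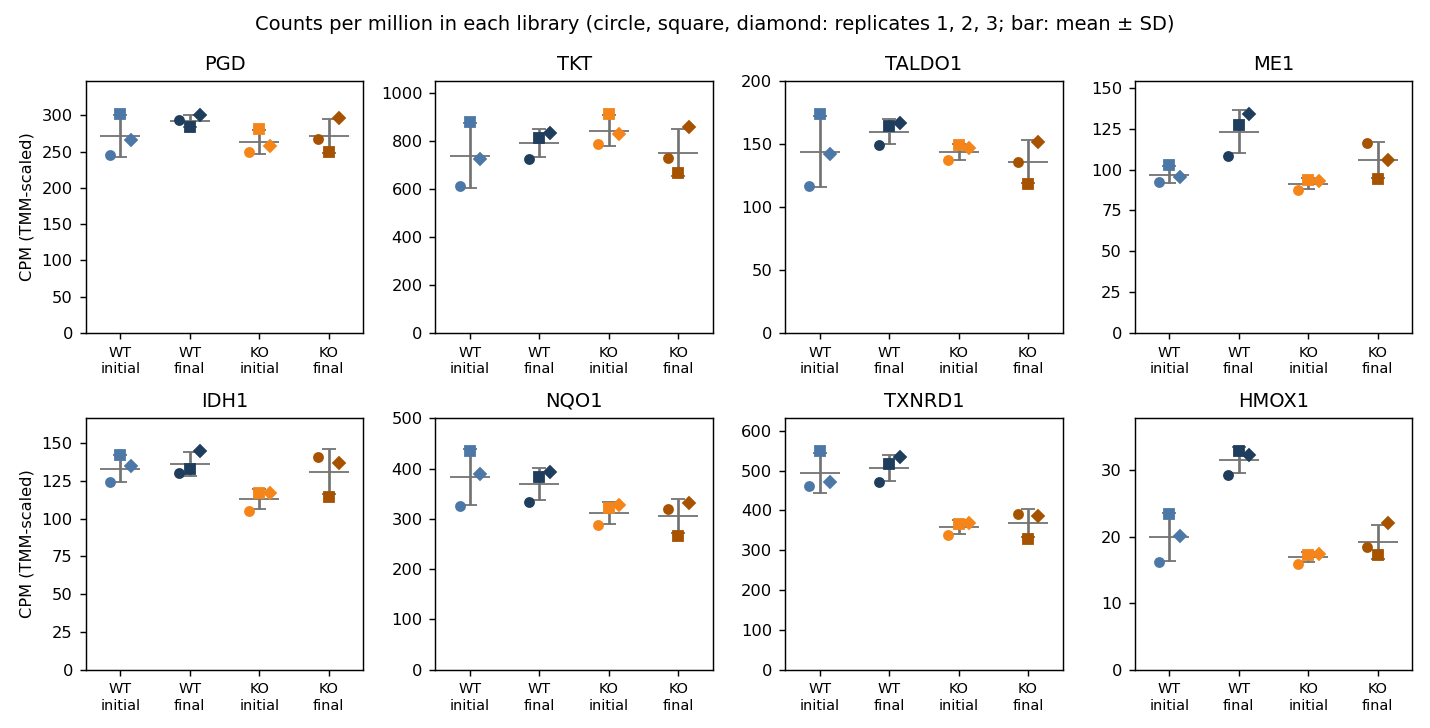
Level of each of the 8 tested genes in TMM-scaled CPM in the 12 libraries, with points for libraries and bars for the mean ± SD of each group of 3. TXNRD1 lies lower in all 6 knock-out libraries (327 to 391 CPM) than in all 6 wild-type libraries (460 to 550 CPM), and HMOX1 is highest in the 3 final wild-type libraries.

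The first question was whether knock-out cells differed from wild-type cells in the enzymes of NADPH supply. None of the 5 enzymes passed the test in either harvest or on the average. The 5 genes had a median log2 fold change of -0.05 at the initial harvest and -0.11 at the final harvest, beside medians of 0.00 over all genes at both. At an unadjusted p under 0.05 there was 1 of the 5 at each harvest, and 0 of the 5 were called in these comparisons by any of the other 7 settings, DESeq2 and limma-voom included. In bulk RNA, fewer cells of a type and less RNA per cell cannot be told apart.

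PGD (chr1:10398592-10420511, GRCh38, plus strand) encodes 6-phosphogluconate dehydrogenase, which makes NADPH in the oxidative branch of the pentose phosphate pathway. It had 245, 302 and 266 CPM in initial wild-type cells, 249, 281 and 258 CPM in initial knock-out cells, 293, 284 and 301 CPM in final wild-type cells and 268, 250 and 297 CPM in final knock-out cells. The groups overlapped at both harvests. The log2 fold change of knock-out over wild type was -0.05 (95% interval -0.24 to 0.15) at the initial and -0.11 (-0.30 to 0.09) at the final harvest. Counts of PGDP1, a processed copy of PGD, were between 0 and 5 per library.

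TKT (chr3:53224712-53256052, minus strand), transketolase, and TALDO1 (chr11:747415-765012, plus strand), transaldolase, return pentose phosphates to glycolysis in the non-oxidative branch. TKT had 613, 881 and 726 CPM in initial wild-type cells against 788, 914 and 831 CPM in initial knock-out cells, and 724, 815 and 833 CPM in final wild-type cells against 731, 668 and 858 CPM in final knock-out cells. Its groups overlapped at both harvests, with log2 fold changes of 0.19 (-0.08 to 0.46) and -0.07 (-0.34 to 0.20). TALDO1 averaged 144 ± 28.2 CPM in initial wild-type cells and 144 ± 6.49 CPM in initial knock-out cells, then 160 ± 9.85 and 136 ± 16.9 CPM at the final harvest (SD, n = 3). Its final log2 fold change was -0.24 (-0.50 to 0.02, adjusted p 0.202), an interval that reaches to just above 0.

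ME1 (chr6:83210402-83431051, minus strand) encodes the cytosolic malic enzyme, which makes NADPH while turning malate into pyruvate. It had 92.5, 103 and 95.6 CPM in initial wild-type cells and 87.5, 93.7 and 93.1 CPM in initial knock-out cells. At the final harvest it had 108, 127 and 134 CPM in the wild type and 116, 94.3 and 106 CPM in the knock-out. Groups overlapped at both harvests, and the log2 fold change was -0.08 (adjusted p 0.591) and -0.22 (adjusted p 0.116). Leaving out the final wild-type replicate 1 gave -0.30 with an adjusted p of 0.0324 at the final harvest. Without that library and without the final knock-out replicate 1, the average over both harvests was -0.20 (adjusted p 0.025) and -0.19 (adjusted p 0.0488), against -0.15 (adjusted p 0.0942) with all 12.

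IDH1 (chr2:208236229-208266074, minus strand) encodes the cytosolic and peroxisomal isocitrate dehydrogenase that reduces NADP. It had 124, 142 and 135 CPM in initial wild-type cells and 105, 117 and 117 CPM in initial knock-out cells. These groups did not overlap, but the log2 fold change of -0.24 (SE 0.0925, adjusted p 0.0795) did not pass the test. At the final harvest the wild type had 130, 133 and 145 CPM and the knock-out 141, 114 and 137 CPM, which overlapped, with a log2 fold change of -0.06. IDH1-AS1, on the other strand, shares 94 exon bases with IDH1 (2.0% of them).

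**Figure D2:**
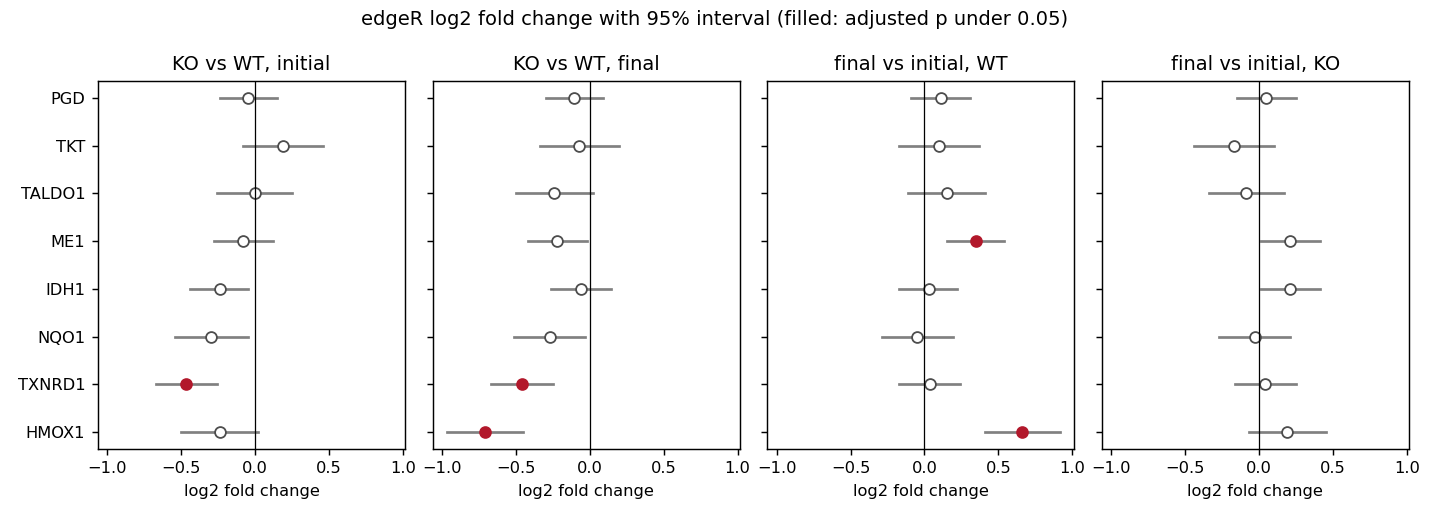
Log2 fold change (horizontal axes) of the 8 tested genes for knock-out over wild type at each harvest and for final over initial in each genotype, from edgeR's quasi-likelihood fit, with bars for the 95% interval and filled points for an adjusted p under 0.05. TXNRD1 lies at -0.47 and -0.46, HMOX1 at -0.24 and -0.71 between genotypes, and HMOX1 (0.66) and ME1 (0.35) are the called genes over time in the wild type.

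The second question was whether the NRF2 target genes differed between genotypes. TXNRD1 fell at both harvests, HMOX1 fell at the final harvest, and NQO1 fell on the average over both harvests. In the initial comparison 1 of the 8 tested genes was called and in the final comparison 2 of the 8, all of them lower in the knock-out. The average over both harvests called 3 of the 8, again all lower. Among all 18289 genes tested, 19.9%, 18.5% and 30.1% were called in these comparisons, and 11.3%, 10.2% and 16.1% were called lower. Nothing particular to these genes is read from these counts. Of the 5 enzymes 0 were called, and of the 3 tested NRF2 targets 1, 2 and 3 were called in the same order. Group ranges did not overlap for 2 of the 8 genes at the initial harvest (35.5% of all genes) and for 3 of the 8 at the final harvest (33.1%).

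TXNRD1 (chr12:104215779-104350307, plus strand) encodes the cytosolic thioredoxin reductase, a selenoprotein that spends NADPH to keep thioredoxin reduced. It had 460, 550 and 471 CPM in initial wild-type cells and 338, 366 and 369 CPM in initial knock-out cells. It had 471, 516 and 533 CPM in final wild-type cells and 391, 327 and 386 CPM in final knock-out cells. No knock-out library reached the lowest of the wild-type libraries. Knock-out over wild type gave -0.47 on the log2 scale (SE 0.0975, adjusted p 0.00274) initially and -0.46 (SE 0.0975, adjusted p 0.00291) finally, or 72.4% and 72.6% of the wild-type level. The difference between these effects was 0.00 (95% interval -0.29 to 0.30). TXNRD1 kept its call in every setting run in these 2 comparisons and in their average. RPL18AP3, EID3 and a gene on the other strand lie in its introns and share none of its exon bases.

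HMOX1 (chr22:35380361-35394214, plus strand) encodes heme oxygenase 1, which breaks down heme. It had 16.2, 23.4 and 20.1 CPM in initial wild-type cells and 15.9, 17.3 and 17.4 CPM in initial knock-out cells. These groups overlapped, with a log2 fold change of -0.24 (SE 0.123, adjusted p 0.2). It had 29.3, 32.9 and 32.3 CPM in final wild-type cells and 18.4, 17.2 and 22 CPM in final knock-out cells. The final groups did not overlap, and HMOX1 was at 61.0% of the wild-type level there (log2 fold change -0.71, SE 0.122, adjusted p 0.000523). The final effect minus the initial effect was -0.47 (95% interval -0.84 to -0.11, unadjusted p 0.0145 and adjusted p 0.251 in edgeR), so a change of the effect between harvests did not pass the test over all genes. Without the initial wild-type replicate 1, HMOX1 was also called at the initial harvest (-0.36, adjusted p 0.0311).

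NQO1 (chr16:69706996-69726668, minus strand) encodes a quinone reductase that takes electrons from NADH or NADPH. It had 325, 436 and 390 CPM in initial wild-type cells and 288, 321 and 328 CPM in initial knock-out cells, with 1 wild-type library inside the knock-out range. It had 333, 383 and 393 CPM in final wild-type cells and 319, 267 and 332 CPM in final knock-out cells, which did not overlap by a narrow margin. On the TPM scale these final groups overlapped, with 320, 412 and 444 TPM in the wild type and 358, 313 and 381 TPM in the knock-out. The log2 fold changes of -0.30 (adjusted p 0.0813) and -0.27 (adjusted p 0.115) did not pass alone. Averaged over both harvests NQO1 was at 82.1% of the wild-type level (log2 fold change -0.28, SE 0.0806, adjusted p 0.0133), a call kept in every setting run. The initial difference was called without the initial wild-type replicate 1 (-0.40, adjusted p 0.0161). With no filter on low counts NQO1 was called at both harvests (-0.30, adjusted p 0.0278, and -0.28, adjusted p 0.0493). A gene on the other strand shares 19.4% of its exon bases and had 0 counts in all 12 libraries.

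SRXN1 (chr20:646615-653200, minus strand) encodes sulfiredoxin, which repairs over-oxidised peroxiredoxins. It had between 0 and 10 counts per library, with 0, 6 and 1 in initial wild-type cells, 10, 0 and 2 in initial knock-out cells, 6, 1 and 3 in final wild-type cells and 3, 5 and 6 in final knock-out cells. Another annotated gene on the same strand (ENSG00000270299.1, chr20:646626-675800) shares 90.7% of its exon bases. How reads from shared bases were counted is not given in the sources used here, so these counts do not measure the level of SRXN1 and no fold is given.

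Promoter windows are shown for TXNRD1, the gene called at both harvests, for NQO1, called on the average, and for ME1, called over time in the wild type. They come from RefSeq on GRCh38.p14 and run from 250 bases before to 50 bases after a start site, 5′ to 3′ along the gene. The letters TGACNNNGC, the core of the antioxidant response element, were searched on both strands and are in capitals where found.
TXNRD1, chr12:104215529-104215828, plus strand: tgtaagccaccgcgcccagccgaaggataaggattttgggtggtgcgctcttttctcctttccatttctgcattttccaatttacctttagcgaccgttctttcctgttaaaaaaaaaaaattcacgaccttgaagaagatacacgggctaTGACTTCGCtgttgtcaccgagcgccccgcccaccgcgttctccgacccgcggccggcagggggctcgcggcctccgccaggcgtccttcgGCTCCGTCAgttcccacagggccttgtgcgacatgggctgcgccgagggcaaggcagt
TXNRD1, chr12:104286782-104287081, plus strand: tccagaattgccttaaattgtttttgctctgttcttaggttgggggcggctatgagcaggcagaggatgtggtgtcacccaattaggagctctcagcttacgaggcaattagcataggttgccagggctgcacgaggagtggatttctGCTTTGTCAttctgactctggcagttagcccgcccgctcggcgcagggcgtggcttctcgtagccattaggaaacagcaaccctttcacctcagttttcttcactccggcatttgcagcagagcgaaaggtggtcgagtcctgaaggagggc
ME1, chr6:83431002-83431301, minus strand: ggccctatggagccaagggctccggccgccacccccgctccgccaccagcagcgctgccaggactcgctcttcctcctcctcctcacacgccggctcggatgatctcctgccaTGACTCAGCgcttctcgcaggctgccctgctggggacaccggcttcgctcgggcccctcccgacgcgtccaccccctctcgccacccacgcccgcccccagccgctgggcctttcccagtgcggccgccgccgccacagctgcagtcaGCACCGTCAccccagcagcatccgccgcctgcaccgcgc
NQO1, chr16:69726511-69726810, minus strand: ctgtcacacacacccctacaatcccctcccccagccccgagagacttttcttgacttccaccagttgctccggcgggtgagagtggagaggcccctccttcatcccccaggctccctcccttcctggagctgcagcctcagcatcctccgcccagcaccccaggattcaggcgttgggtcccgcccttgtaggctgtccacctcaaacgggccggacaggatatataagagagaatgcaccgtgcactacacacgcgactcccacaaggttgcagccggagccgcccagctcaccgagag
The first TXNRD1 window held a match on the gene's strand that begins 99 bases before the start and 1 on the other strand 8 bases before it, and the second window held 1 on the other strand 102 bases before its start. ME1 held a match 137 bases before the start and 1 that begins 11 bases after it. Windows were found for 8 of the 9 genes, 10 in all, and HMOX1 had no window and was not searched. Of the 10, 5 windows of 4 genes (PGD, ME1, IDH1 and TXNRD1) held the letters. Of all 35116 windows of 300 bases in the same table, 13.3% held them. A match is a run of letters in a window and is not shown to be bound. The NQO1 window did not hold the letters, but bases further than 250 before a start were not searched. Whether the letters bear on the calls was not tested.

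Over 2 months of culture, 2 of the 8 genes rose in the wild type, HMOX1 and ME1, where 6.47% of all genes were called and 3.05% were called higher. Group ranges did not overlap for these 2 genes (22.2% of all genes). HMOX1 averaged 19.9 ± 3.61 CPM before and 31.5 ± 1.90 CPM after (SD, n = 3), which is 158% of the initial level (log2 fold change 0.66, SE 0.122, adjusted p 0.00324), and kept its call in every setting run. On the TPM scale its libraries overlapped, with 27.1, 38.6 and 31.9 TPM at the initial and 36.3, 45.6 and 47.0 TPM at the final harvest. ME1 averaged 96.9 ± 5.22 CPM before and 123 ± 13.1 CPM after (log2 fold change 0.35, SE 0.0935, adjusted p 0.0364). On the TPM scale its libraries also overlapped, with 107, 117 and 105 TPM at the initial and 92.6, 122 and 134 TPM at the final harvest. The means on that scale were 110 and 116 TPM. The call on ME1 was lost with library totals in place of TMM (0.26, adjusted p 0.114), with only the compared groups in the fit (0.34, adjusted p 0.106) and in 7 of the 12 fits that left out 1 library. Those 7 left out the initial wild-type replicate 1 or 3, the final wild-type replicate 2 or 3 or any initial knock-out library, with log2 fold changes of 0.28 to 0.35 and adjusted p-values of 0.0506 to 0.183.

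In the knock-out, none of the 8 genes passed the test between the final and initial harvests, where 1.48% of all genes were called (0.837% higher and 0.64% lower). At an unadjusted p under 0.05 there were 2 of the 8 in edgeR, and DESeq2 and limma-voom also called 0. ME1 averaged 91.4 ± 3.44 and 106 ± 11 CPM and its ranges did not overlap (23.2% of all genes), but its log2 fold change of 0.21 had an adjusted p of 0.312. Its ranges overlapped on the TPM scale, with 96.0, 99.4 and 99.7 TPM initially and 116, 98.3 and 108 TPM finally. HMOX1 averaged 16.9 ± 0.80 and 19.2 ± 2.50 CPM (log2 fold change 0.19, 95% interval -0.07 to 0.45). TXNRD1 was level in both genotypes, with a time effect of 0.04 in both. The test of the difference between the genotype effects at the harvests called 0 of the 8 genes in edgeR, DESeq2 and limma-voom, with 1 at an unadjusted p under 0.05, where 1.28% of all genes were called (0.809% higher and 0.476% lower).

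Among the regulators of NRF2, 10 of 10 listed genes were tested, and on the average over both harvests MAFK rose, NFE2L2 fell and the other 8 were not called, with a median log2 fold change of -0.05. Of all genes, 30.1% were called in that comparison, 14.0% higher and 16.1% lower. At the initial harvest 2 of the 10 were called higher and 1 lower, and at the final harvest 0 higher and 2 lower. Of all genes, 8.55% and 8.38% were called higher and 11.3% and 10.2% lower at these harvests. NFE2L2 had 131, 153 and 141 CPM in initial wild-type cells and 99.7, 108 and 114 CPM in initial knock-out cells. It had 124, 132 and 134 CPM in final wild-type cells and 113, 98.2 and 113 CPM in final knock-out cells. Again no knock-out library reached the lowest wild-type library in CPM. On the TPM scale the final groups overlapped, with 62.2, 74.1 and 79.5 TPM in the wild type and 66.7, 60.3 and 68.1 TPM in the knock-out. The log2 fold change of NFE2L2 was -0.33 on the average (adjusted p 0.00057) and -0.40 at the initial harvest (adjusted p 0.00351). At the final harvest it was -0.26 (adjusted p 0.0435), a call lost in 5 other settings and without any 1 of the libraries of the final knock-out and initial knock-out, the final wild-type replicates 2 and 3 or the initial wild-type replicate 3 (-0.30 to -0.20, adjusted p up to 0.185). ENSG00000213963, on the same strand, shares 18.6% of the exon bases of NFE2L2.

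KEAP1, the inhibitor of NRF2, rose at the initial harvest, with 96.6 ± 18.1 CPM in the wild type and 126 ± 4.67 CPM in knock-out cells (log2 fold change 0.39, adjusted p 0.0246). That call was lost without the initial wild-type replicate 1 or 3 or the initial knock-out replicate 2 or 3 (0.27 to 0.39, adjusted p 0.0598 to 0.0958). At the final harvest KEAP1 had 108 ± 4.98 CPM in the wild type and 107 ± 12 CPM in the knock-out (-0.02, adjusted p 0.943). On the average it was at 0.18 (adjusted p 0.0963), and without the initial wild-type replicate 2 at 0.26 (adjusted p 0.00616). BACH1, a repressor that competes with NRF2 at the HMOX1 promoter, had a log2 fold change of -0.05 (adjusted p 0.707). MAFK, a small MAF partner of NRF2 and BACH1, rose from 32.3 ± 5.46 to 47.4 ± 2.49 CPM at the initial harvest and had 33.8 ± 3.34 and 37.6 ± 4.19 CPM at the final one, with an average log2 fold change of 0.35 (adjusted p 0.00435).

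Of 31 other NRF2 target genes, 26 were tested, and on the average over both harvests 10 fell, 0 rose and 16 were not called. Their median log2 fold change was -0.09 beside 0.00 over all genes, and 16.1% of all genes were called lower. At the initial harvest 6 fell and at the final harvest 7, with none higher at either (11.3% and 10.2% of all genes were called lower, and 8.55% and 8.38% higher). NQO2, a quinone reductase that uses dihydronicotinamide riboside in place of NADPH, fell from 47.7 ± 6.56 to 17.0 ± 0.949 CPM at the initial and from 47.5 ± 4.91 to 16.0 ± 0.747 CPM at the final harvest (average log2 fold change -1.53, adjusted p 2.26e-10). NQO2 (chr6:2987987-3019755) lies among genes that were lower as well, since 10 of the 10 tested genes within 1 Mb of it fell, with a median of -1.14. Around TXNRD1 the median of 15 genes was -0.13, around NQO1 it was 0.01 for 28 genes and around HMOX1 it was -0.06 for 7 genes.

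SLC7A11, the cystine carrier of the cystine-glutamate antiporter, had 417, 240 and 274 CPM in initial wild-type cells and 108, 102 and 95 CPM in initial knock-out cells. At the final harvest it had 240, 219 and 228 CPM in the wild type and 141, 149 and 108 CPM in the knock-out. The groups did not overlap at either harvest, and the average log2 fold change was -1.20 (adjusted p 6.43e-07). SLC7A11 is also a known target of ATF4, the factor of amino acid stress. ABCC3, a transporter that exports organic anions, fell from 180 ± 39.3 to 102 ± 14.1 CPM and from 185 ± 23.1 to 122 ± 19.9 CPM (average -0.71, adjusted p 9.64e-05).

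OSGIN1, an oxidative stress-induced growth inhibitor, was the 1 gene of the list called in the test of whether the genotype effect differed between harvests. It had 20.8 ± 2.89 CPM in initial wild-type cells, 18.6 ± 1.24 CPM in final wild-type cells and 20.6 ± 0.838 CPM in initial knock-out cells. In the final knock-out it had 10.4 ± 0.617 CPM. Its log2 fold change of knock-out over wild type was -0.01 (adjusted p 0.946) at the initial and -0.84 (adjusted p 2.51e-05) at the final harvest. The test of the difference gave -0.83 (SE 0.146, adjusted p 0.00786). Over the 2 months of culture OSGIN1 fell in the knock-out by 0.99 on the log2 scale (adjusted p 7.23e-05), the only gene of the list called there. Of all genes, 1.48% were called in the knock-out over time and 1.28% in the test of the difference.

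**Figure D3:**
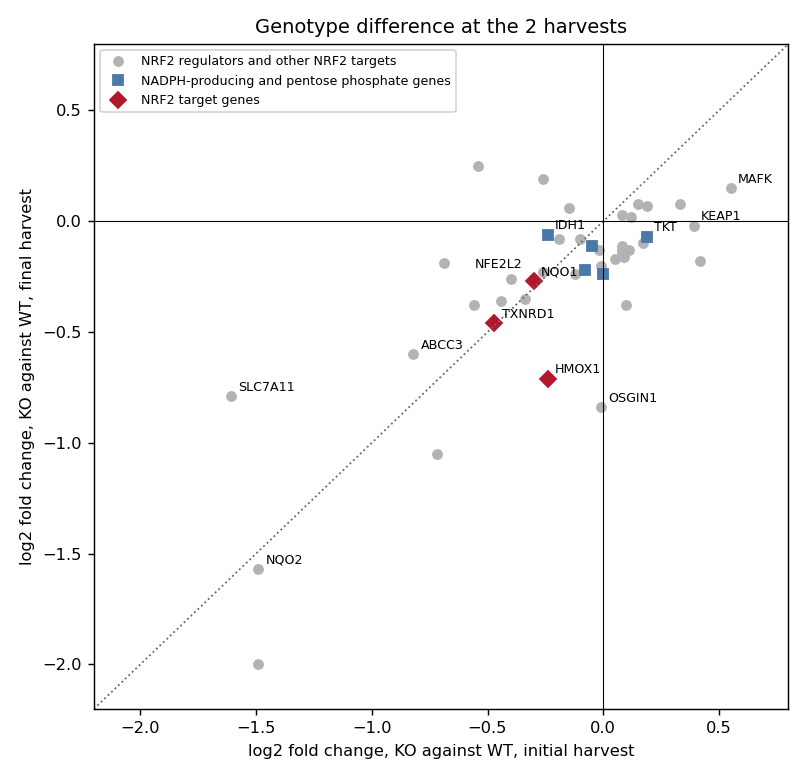
Log2 fold change of knock-out over wild type at the final harvest (vertical axis) against the initial harvest (horizontal axis), 1 point for each of the 8 tested genes (coloured) and each tested NRF2 regulator or other NRF2 target (grey), with a dotted line where both are equal. TXNRD1 lies near the diagonal at -0.47 and -0.46, and OSGIN1 lies below it at -0.01 and -0.84.

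Of 20 other pentose phosphate and NADPH-linked enzymes, 16 were tested, and on the average over both harvests 1 rose, 2 fell and 13 were not called. Their median log2 fold change was 0.05 beside 0.00 over all genes, where 14.0% of all genes were called higher and 16.1% lower. SHPK, which phosphorylates sedoheptulose and so feeds the non-oxidative branch, rose from 5.96 ± 0.45 to 8.15 ± 0.289 CPM at the initial harvest and had 5.85 ± 0.247 and 6.68 ± 0.368 CPM at the final one (average 0.32, adjusted p 0.00292). In addition, 75.4% of the exon bases of SHPK are shared with ENSG00000262304 on the same strand, so, as for SRXN1, the counts given to SHPK (210 to 330 per library) may not measure its level. ALDH1L2, a mitochondrial formyltetrahydrofolate dehydrogenase that makes NADPH, fell by 0.57 on the log2 scale (adjusted p 0.00144), from 6.86 ± 1.40 to 4.64 ± 1.01 CPM and from 8.51 ± 1.03 to 5.70 ± 0.224 CPM. IDH2, the mitochondrial counterpart of IDH1, fell by 0.38 on the average (adjusted p 0.00339), with 52.1 ± 8.89 CPM in wild-type and 42.5 ± 1.40 CPM in knock-out cells initially (not called alone), and 53.7 ± 4.68 and 38.8 ± 6.04 CPM finally. Both of the genes that fell encode mitochondrial enzymes.

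In the wild type over 2 months, 6.47% of all genes were called and 3.05% were called higher. ME2, the mitochondrial malic enzyme, was the 1 gene of the 16 called there (0.44, adjusted p 0.0125). That call was lost with only the compared groups in the fit (0.44, adjusted p 0.0543) and without the initial wild-type replicate 3 (0.43, adjusted p 0.06), the final wild-type replicate 2 (0.41, adjusted p 0.0622) or the final wild-type replicate 3 (0.37, adjusted p 0.0769). In the knock-out over time 0 of the 16 were called in edgeR, with 4 at an unadjusted p under 0.05, where 1.48% of all genes were called.

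The list of thioredoxin, glutaredoxin and peroxide-removing enzymes held 26 genes and also took in genes of other kinds, such as sestrins and TXNIP. Of the 26, 23 were tested, and on the average 5 rose and 4 fell, with a median of 0.01 (14.0% of all genes were called higher and 16.1% lower). SESN1, a sestrin, rose in the knock-out from 12 ± 0.904 to 21.5 ± 0.291 CPM and from 16.2 ± 1.27 to 22.6 ± 2.21 CPM (average 0.66, adjusted p 1.51e-06), while its relative SESN2 fell from 5.39 ± 0.962 to 3.42 ± 0.528 CPM initially and had 3.84 ± 0.313 and 2.74 ± 0.456 CPM finally (-0.57, adjusted p 0.00143). In the wild type over time SESN1 also rose (0.43, adjusted p 0.0141 in edgeR), as the 1 gene of the 23 called there. Of all genes, 6.47% were called in that comparison and 3.05% were called higher. This SESN1 call was lost with library totals and with only the compared groups in the fit. It was also lost without the initial wild-type replicate 3 or the final wild-type replicate 2 or 3. GLRX, the cytosolic glutaredoxin, fell from 26.3 ± 1.63 to 15.0 ± 0.197 CPM and from 28.2 ± 2.83 to 17.0 ± 1.95 CPM (-0.77, adjusted p 4.33e-07). GPX1, a glutathione peroxidase, rose from 66.8 ± 21.8 to 101 ± 2.84 CPM at the initial harvest and had 63.9 ± 9.12 and 82.4 ± 16.2 CPM at the final one (0.48, adjusted p 0.00979). Catalase CAT fell by 0.20 (adjusted p 0.0214), a call lost without the initial wild-type replicate 3, the final wild-type replicate 3, the initial knock-out replicate 1 or the final knock-out replicate 2 (-0.19 to -0.16, adjusted p 0.0502 to 0.0708). MSRB1, a methionine sulfoxide reductase, rose by 0.32 (adjusted p 0.0431), a call lost in 8 of the 12 fits without 1 library, which were those without the initial wild-type replicate 1 or 3, the final wild-type replicate 1, any initial knock-out library or the final knock-out replicate 1 or 3 (0.24 to 0.34, adjusted p 0.0572 to 0.11).

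**Figure D4:**
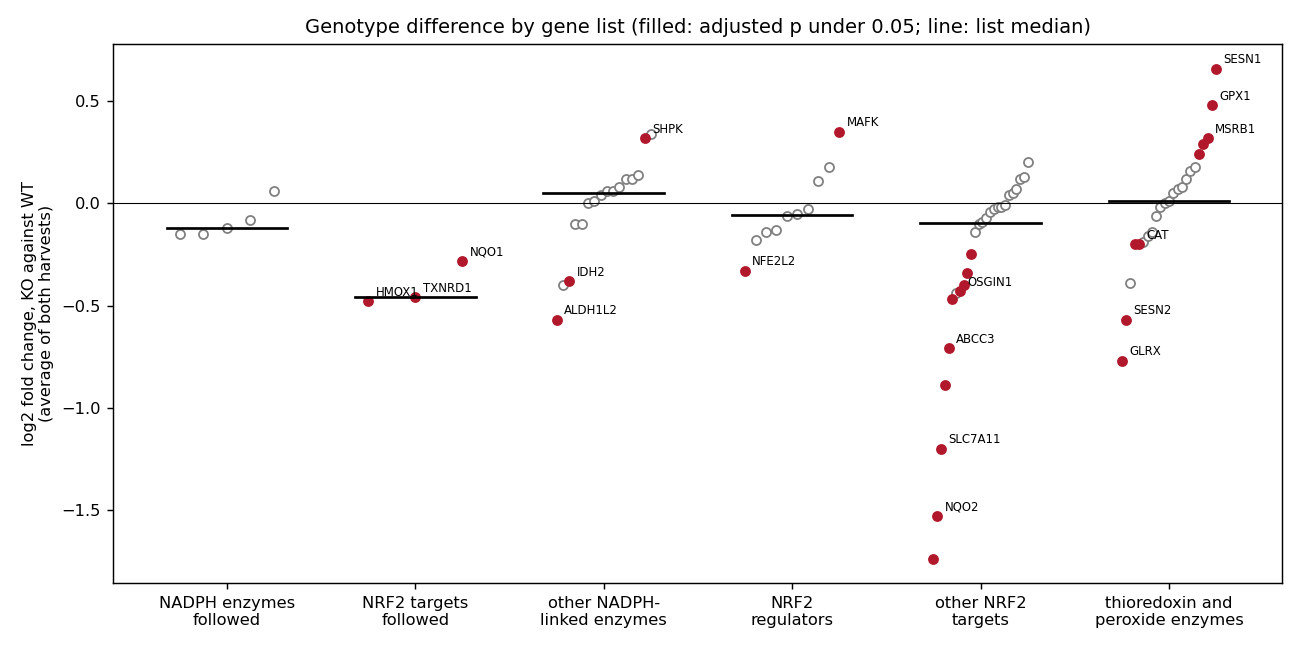
Average log2 fold change of knock-out over wild type (vertical axis) for the tested genes of each list, 1 point per gene, with a line at the list median and filled points for an adjusted p under 0.05 in edgeR's quasi-likelihood test. All called genes of the NRF2 target lists lie below 0, while the thioredoxin and peroxide list has 5 called genes above and 4 below.

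The genes whose levels followed the 3 called genes most closely over the 12 libraries were found by the root mean square difference of library-centred log2 CPM among 12537 genes. They were COQ5 (0.0598) and STMN1 (0.0604) for NQO1, SZRD1 (0.062) and C1orf115 (0.0661) for TXNRD1, and LINC00460 (0.108) and NME7 (0.127) for HMOX1. None of these 6 is in a list used here.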

How the data were processed

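Raw gene counts were deposited by the authors for 12 poly-A RNA-seq libraries, 3 in each of 4 groups, in a table laid out as featureCounts writes it, per the file headers. The submitters' processing notes name STAR, Subread, featureCounts and the build hg38, without versions. Strandedness of counting, treatment of reads mapping to several places and the annotation release are not given in the sources used here. The design text calls the libraries biological replicates. Symbols were assigned to 60506 of 60648 genes, and the 37318 gene versions shared with GENCODE 29 had identical coordinates. 5 lines holding 1 broken gene were left out.

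Genes passing filterByExpr by group (18289) were scaled with TMM factors (0.9265 to 1.034) and entered 1 quasi-likelihood model of all libraries with robust dispersions (edgeR 4.0.16 with limma 3.58.1 under R 4.3.3). The common biological coefficient of variation was 9.77%. 6 comparisons were made, knock-out against wild type at each harvest and on the average, final against initial in each genotype, and the interaction, and p-values were adjusted by Benjamini and Hochberg over all genes tested. Called means an adjusted p under 0.05. A range overlap compares CPM of the libraries. The fit was tested on simulated data with 200 changed genes. The genes shown and the 4 pathway lists and 2 marker lists were chosen with earlier results of these data known. Besides the 9 genes, MTHFD2, NFE2L2, KEAP1 and BACH1, the text names up to 3 called genes per direction and list by average log2 fold change (mean log2 CPM of at least 1) and the called gene of smallest adjusted p per list in each time comparison. Genes most alike were planned for genes called on the average over both harvests with an average change of at least 0.5 on the log2 scale. None of the 9 genes reached that in the average, so the limit was dropped after the values were seen. Alternatives were 7 settings, DESeq2 1.42.0 and limma-voom among them, and leaving out each library.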

Additional observations from a re-analysis of the deposited data

Results flagged for a closer look

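OSGIN1 is listed because its genotype effect differed between harvests, by a test of that difference. The effect at the final harvest minus that at the initial harvest was -0.83 on the log2 scale (edgeR's quasi-likelihood test, adjusted p 0.00786), and it lay between -0.94 and -0.75 when each library was left out in turn. OSGIN1 was at 10.4, 9.77 and 11 CPM in the final knock-out, below the other 9 libraries, which had 17.4 to 24.0 CPM. None of the 9 genes followed here met such a rule, and groups of 3 libraries allow no check for a single library that stands apart.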

How the results depend on the processing

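TXNRD1 (initial, final and average), HMOX1 (final, average and wild-type time) and NQO1 (average) kept direction and call under the 7 alternative settings and when each of the 12 libraries was left out. With no filter on low counts 2 of the 8 genes were called at the initial harvest instead of 1. In the wild type over time the number called was 1 instead of 2 with library totals, with only the compared groups and with a replicate block, under which ME1 had 0.34 (adjusted p 0.0507). Over all genes, the wild-type time comparison gave 578 calls with only the compared groups against 1183, the knock-out time comparison gave 602 in DESeq2, 484 without the filter and 728 with only the compared groups against 270, and the interaction gave 472 in DESeq2 and 423 without the filter against 235. Leaving out 1 library gave 1 to 3 called among the 8 genes at the initial harvest, 2 to 3 at the final, 3 to 4 on the average and 1 to 2 in the wild type over time. Over all genes it gave 2423 to 4615, 2561 to 3895, 4657 to 6039 and 627 to 1399 in the same order, 94 to 463 in the knock-out over time and 124 to 444 for the interaction. Values near 0 changed sign: TALDO1 initial was 0.02 in limma-voom and 0.01 with the replicate block against -0.00, and library totals, which moved the median of all genes by -0.083 in the wild type over time, gave -0.06 for IDH1 and -0.05 for TXNRD1 there and 0.04 for KEAP1 at the final harvest. When single libraries were left out, log2 fold changes ran from -0.13 to 0.15 (TALDO1), -0.11 to 0.04 (PGD) and -0.09 to 0.10 (OSGIN1) at the initial harvest, from -0.12 to 0.03 (IDH1), -0.18 to 0.01 (TKT) and -0.11 to 0.06 (KEAP1) at the final, from -0.00 to 0.13 (TKT) and -0.10 to 0.00 (BACH1) on the average, from -0.03 to 0.10 (PGD), -0.10 to 0.05 (NQO1) and -0.01 to 0.11 (TXNRD1) in the knock-out over time and from -0.02 to 0.24 (TKT), -0.02 to 0.07 (IDH1), -0.16 to 0.05 (NQO1) and -0.01 to 0.12 (TXNRD1) in the wild type over time. The cause was not tested. The replicate numbers were not taken to pair libraries, since 8 of 18 same-numbered pairs had a correlation of deviations over 0.1 (range -0.59 to 0.534). The limits are 1 knock-out clone, 3 libraries per group and, for SRXN1, counts of 10 or fewer.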
